A study of Homo sapiens with 6 samples.

Results

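The CXCR5 locus was described through the accessible regions that lie in a 100 kb stretch of chromosome 11 in or near CXCR5 (GRCh38). In all, 4 of the 3838 regions of the authors' deposited table lay there, and all 4 are described here. The locus was chosen because it held several regions, and the table itself was selected on the folds given below, so these folds are a description and were not tested.

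CXCR5 encodes a G protein-coupled chemokine receptor that binds the ligand CXCL13. Stromal cells and follicular dendritic cells of lymphoid follicles make CXCL13, and mature B cells and follicular helper T cells follow it into the follicle through CXCR5. When B cells turn into plasma cells they normally lose CXCR5 and rely more on CXCR4, the receptor for CXCL12 that holds plasma cells in the bone marrow. Multiple myeloma is a tumour of plasma cells.

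The study measured chromatin accessibility by ATAC-seq, a method that tags open DNA with sequencing adapters through a transposase. It used 3 established human multiple myeloma cell lines of wild-type genotype by the labels, KMS-11, KMS-12 and RPMI8226. Each was treated with 1 µM JQ1 for 72 h, or with DMSO, the solvent of JQ1, in equal volume. JQ1 is a small molecule that keeps BET proteins, which read acetylated histones through their bromodomains, off chromatin. There were 3 JQ1 libraries and 3 DMSO libraries, 1 for each line and treatment, so a fold within a line has no replicate check. The table gives a log fold change per line, taken here to be log2 and JQ1 over DMSO, since its header states neither base nor direction, and read depth is unknown. All folds of the table lie below 0, and in each region at least 2 lines are at or below -0.5, so a region of the table counts as less accessible under JQ1 by selection. No cell type check of the lines was possible from such a table. It held regions at 2 of 7 plasma cell marker genes (SLAMF7 and IRF4), at 0 of 4 B cell markers, at 0 of 4 T cell markers and at 1 of 4 myeloid markers (CSF1R), with genes named by containing or else nearest gene, where 10.3% of all protein-coding genes had a region. These counts do not speak to expression.

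The region farthest from the gene, called region A here, was chr11:118838915-118839495, 581 bp wide and 44.4 kb upstream of the 5′ end of CXCR5. Region B, chr11:118852057-118852421, was 365 bp wide and 31.5 kb upstream. Region C, chr11:118869955-118870976, was 1022 bp wide and 12.9 kb upstream. These 3 regions lay between genes, in the 92.1 kb that separate CXCR5 from DDX6, which encodes an RNA helicase of mRNA storage and decay. Region A was 4.30 kb from the pseudogene SETP16 and 47.2 kb from DDX6. Region D, chr11:118883708-118884097, was 390 bp wide and spanned the annotated 5′ end of CXCR5, with 184 bp before it and 206 bp inside the gene. No region of the table lay wholly inside CXCR5, and none of the 4 reached BCL9L, a coactivator gene of Wnt signalling that overlaps the far end of CXCR5 by 1652 bp.

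The RefSeq promoter table (GRCh38.p14) has 1 entry for CXCR5, chr11:118893142-118893441 on the plus strand, and it is shown as the annotated start inside the gene at which no region of the table lay. Its start lies 9.50 kb inside the gene, and region D ends 9.05 kb before the window. It holds 250 bases before that start and 50 after, written 5′ to 3′, and capitals mark the motif matches.
CXCR5 promoter: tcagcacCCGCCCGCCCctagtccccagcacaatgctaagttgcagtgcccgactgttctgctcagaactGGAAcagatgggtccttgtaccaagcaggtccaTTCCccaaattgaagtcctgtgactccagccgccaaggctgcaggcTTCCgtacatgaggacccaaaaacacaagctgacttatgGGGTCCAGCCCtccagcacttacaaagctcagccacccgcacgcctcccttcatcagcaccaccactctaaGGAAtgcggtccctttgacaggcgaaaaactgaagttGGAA

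On both strands, the ETS core GGAA, known to be bound by the factor family of FLI1 named in the study's title, matched 5 times. Of all 35116 promoters in the table, 95.5% hold it. The GC box GGGCGG matched 2 times, the matches overlapping each other (45.0% of promoters hold it), and an NF-kB pattern (3 G, then 5 bases of any kind, then 2 C) matched 2 times on opposite strands of the same stretch (58.7%). The octamer ATGCAAAT (1.77% of promoters), AP-1 TGANTCA (7.71%), E-box CACGTG (7.26%), CCAAT box CCAAT (34.6%) and TATA box TATAAA (11.5%) had 0 matches. A match describes letters only, and the sequences of the 4 regions were not analysed here.

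At the start of CXCR5 the 3 lines were closest together. In the authors' deposited table region D had a log2 fold change of -0.88 for KMS-11, -0.93 for KMS-12 and -0.41 for RPMI8226. These folds correspond to JQ1 to DMSO ratios of 0.542, 0.527 and 0.754 in the same order of lines. KMS-11 and KMS-12 were nearly level there and RPMI8226 was the line nearest to 0. The KMS-11 and KMS-12 folds are values that recur in the table, in 49 and 107 other regions. The mean log2 fold change was -0.74 ± 0.29 (SD, n = 3 lines).

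Region A, at the other end of the group, had the same pattern. Its log2 fold change was -1.01 for KMS-11, -0.92 for KMS-12 and -0.27 for RPMI8226 in the authors' deposited table, which are JQ1 to DMSO ratios of 0.497, 0.530 and 0.826. Again KMS-11 and KMS-12 lay together, and RPMI8226 did not reach -0.5. The mean was -0.73 ± 0.40 (SD, n = 3 lines).

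The 2 regions in between had another pattern, with KMS-11 close to 0. For region B, the authors' deposited table gave a log2 fold change of -0.05 for KMS-11, -1.65 for KMS-12 and -0.76 for RPMI8226. The JQ1 to DMSO ratios were 0.965, 0.319 and 0.589, so the same stretch was almost level in KMS-11 and lowest of the whole locus in KMS-12. Its mean was -0.82 ± 0.80 (SD, n = 3 lines), the lowest mean and the widest spread of the 4 regions, and without KMS-12 the mean was -0.41. The range over the lines, 1.60, was reached or passed by 3.83% of the regions of the table, against a median range of 0.71.

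For region C, the widest of the 4, the authors' deposited table gave -0.11 for KMS-11, -0.63 for KMS-12 and -0.66 for RPMI8226 as log2 fold changes. KMS-12 and RPMI8226 were nearly level and KMS-11 stood apart. The mean was -0.47 ± 0.31 (SD, n = 3 lines), the mean nearest to 0 at the locus, and 96.1% of the table's regions had a mean at or below it. In width, 2.97% of the table's regions were as wide or wider, against a median width of 393 bp.

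**Figure D1:**
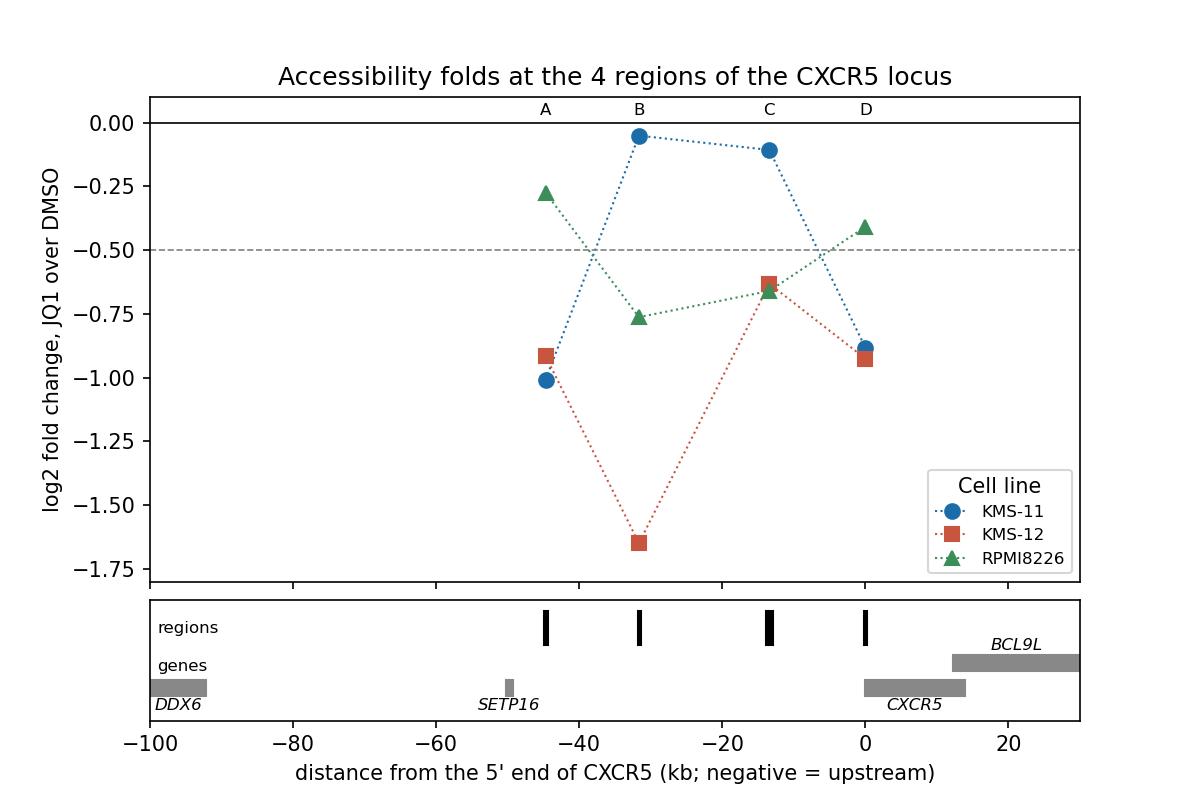
Top, log2 fold change of JQ1 over DMSO (vertical axis) at the 4 regions, by distance in kb from the 5′ end of CXCR5 (horizontal axis), 1 point per line and region. Dotted lines join the points of 1 cell line as a guide to the eye, the dashed line marks -0.5, and the lower panel draws the regions and the genes DDX6, SETP16, CXCR5 and BCL9L to scale. KMS-11 lies near 0 at regions B and C and RPMI8226 lies nearest to 0 at regions A and D, while KMS-12 is below -0.5 at all 4.

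KMS-12 was therefore the one line at or below -0.5 at all 4 regions, where 79.5% of the table's regions have KMS-12 at or below that fold. KMS-11 was there at 2 of 4 regions (77.4% of the table) and RPMI8226 at 2 of 4 (67.8% of the table). The nearest fold inside the -0.5 threshold at the locus was that of KMS-12 at region C, and the nearest outside was that of RPMI8226 at region D. By the authors' deposited table, each of the 4 regions was shared by 2 lines. None had all 3 lines at or below -0.5, a state that 24.8% of the table's regions are in. At -0.75 the locus likewise had 0 such regions (6.31% of the table) and at -1 it had 0 (1.02%). With KMS-11 left out, both remaining lines were at or below -0.5 in 2 regions (B and C), with RPMI8226 left out in 2 (A and D), and with KMS-12 left out in 0. At a fold of -1 or lower, KMS-11 had 1 of the 4 regions (22.7% of the table), KMS-12 had 1 (29.9%) and RPMI8226 had 0 (16.4%).

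The outer pair, regions A and D, and the inner pair, regions B and C, differed most in KMS-11. In that line the outer pair averaged a log2 fold change of -0.95 and the inner pair -0.08. RPMI8226 went the other way by a smaller amount, with -0.34 for the outer and -0.71 for the inner pair. That KMS-11 and RPMI8226 went opposite ways was set by how the table was selected. A region with KMS-11 short of the selection threshold had to have RPMI8226 at or below it, as at regions B and C. The reverse held where RPMI8226 was short, as at regions A and D. Only the sizes of these differences were free to vary. KMS-12, like RPMI8226, had the lower average at the inner pair, -1.14 against -0.92 at the outer pair. In KMS-12 that came from region B alone (-1.65), as region C (-0.63) was nearer to 0 than either outer region. The pairs were formed after the folds were seen, and neighbouring regions of 1 library are not replicates, so the contrast is a description with no test.

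**Figure D2:**
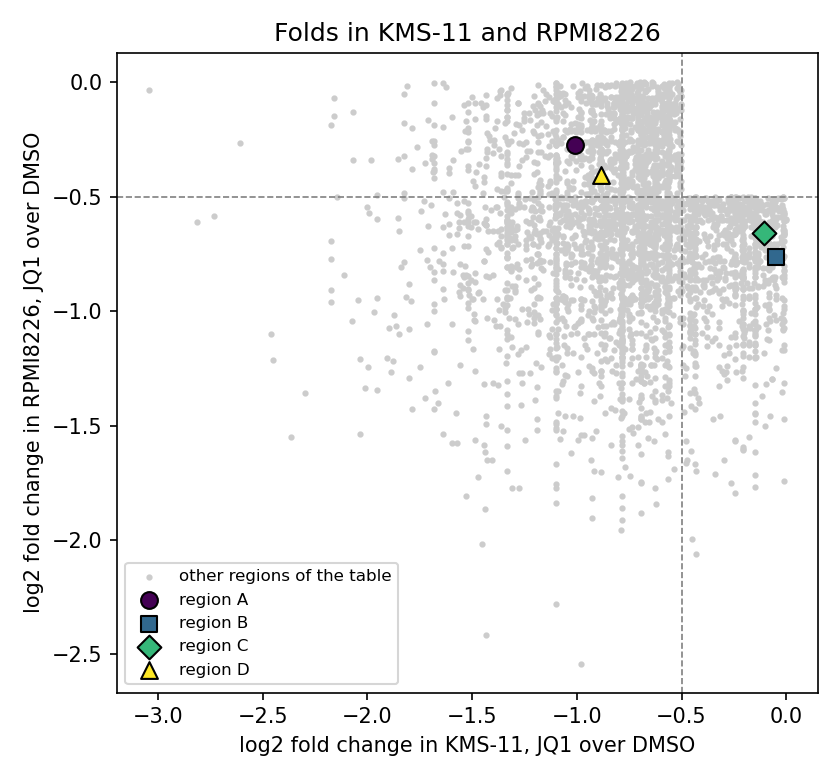
Log2 fold change of JQ1 over DMSO in KMS-11 (horizontal axis) against that in RPMI8226 (vertical axis). Grey points are the other regions of the table, coloured symbols the 4 CXCR5 regions, and dashed lines mark -0.5 (the upper right corner is empty because each region has at least 2 lines at or below it). Regions A and D lie at the upper left (-1.01 and -0.88 in KMS-11) and regions B and C at the right (-0.05 and -0.11 in KMS-11).

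Set among all regions, the locus was not low as a whole. The median of the 4 means was -0.74, against -0.71 over the 3838 regions of the table. By line, the median over the 4 regions was -0.49 in KMS-11, against -0.71 over the table, and -0.92 in KMS-12, against -0.79. In RPMI8226 it was -0.53, against -0.61 over the table. KMS-11 and RPMI8226 were thus nearer to 0 at the locus than over the table, and KMS-12 was farther from it. With each line centred on its own table median, the mean log2 fold change was -0.027 at region A, -0.11 at region B and -0.033 at region D, while region C changed sign to 0.24. None of the 4 had a mean of -1 or lower, which 12.3% of the table's regions had.

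Single folds at the locus were spread widely over the folds of a line. In KMS-11, 98.0% of the table's regions had a fold at or below that of region B and 95.9% at or below that of region C. In KMS-12, region B was among the lowest, with 5.68% of regions at or below it. Region D, at the gene start, stood in the middle part of KMS-11 (31.3% at or below), KMS-12 (35.6%) and RPMI8226 (72.8%).

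**Figure D3:**
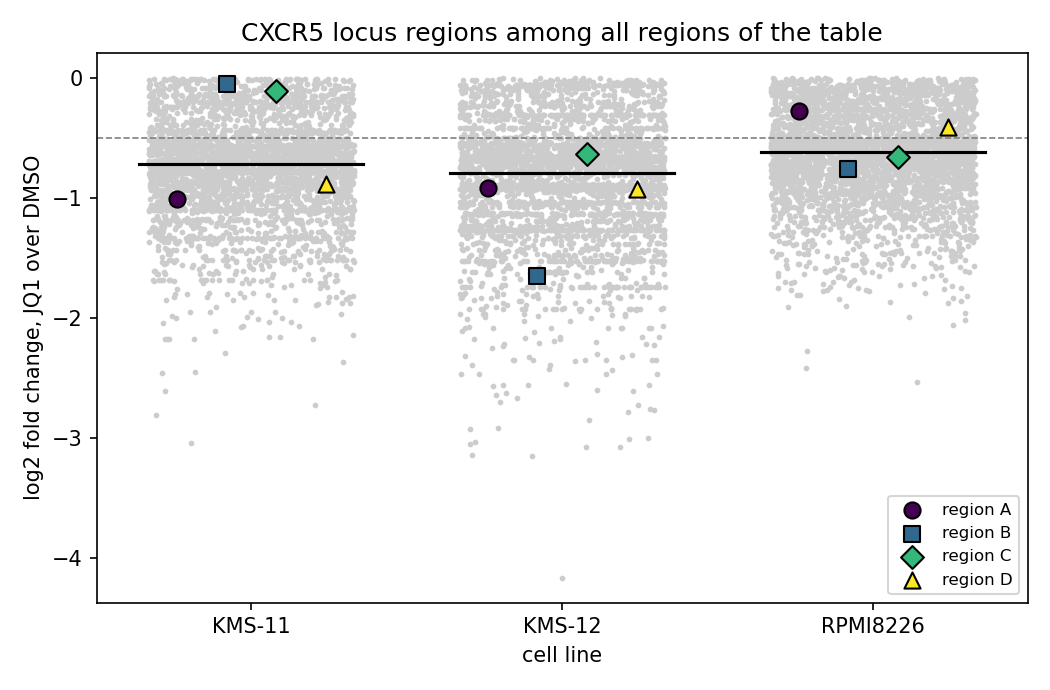
Log2 fold change of JQ1 over DMSO (vertical axis) in each cell line (horizontal axis). Grey points are the 3838 regions of the table, spread sideways for sight only, black bars are the line medians (-0.71, -0.79 and -0.61), the dashed line marks -0.5, and symbols are the 4 CXCR5 regions. Region B is near the top of KMS-11 (-0.05) and in the lower tail of KMS-12 (-1.65).

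Some folds of the locus were values that recur in the table, to 10 decimals. At the gene start, 49 other regions had the same fold as region D in KMS-11, and 107 had the same fold in KMS-12. The KMS-12 fold of region A was shared with 9 other regions. At region B, 4 others had the same fold in KMS-11, 1 had it in KMS-12 and 3 had it in RPMI8226. Region C shared none in any line. Over the table, values found in 10 or more regions made up 41.3% of KMS-11, 52.3% of KMS-12 and 7.58% of RPMI8226 folds. What makes values recur was not tested, and the depth behind them is unknown.

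The 4 regions stood close together and apart from others. They spanned 45.2 kb, with gaps of 12.6, 17.5 and 12.7 kb. The next region of the table to the DDX6 side lay 228 kb away, inside PHLDB1 (chr11:118610794-118611274). Its log2 fold change was -0.04 for KMS-11, -0.53 for KMS-12 and -0.51 for RPMI8226 in the authors' deposited table, so KMS-11 was the line near 0 there as at regions B and C. On the other side the next lay 626 kb away, 10.8 kb from USP2-AS1, a noncoding gene (chr11:119509996-119510374). There the authors' deposited table gave -1.17 for KMS-11, -0.20 for KMS-12 and -0.56 for RPMI8226, with KMS-12 short of -0.5.

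When a window as long as the locus was opened at each region, 89.8% of windows held that region alone, 9.38% held 2 and 0.756% held 3. The 3 windows with 4 or more were that of the CXCR5 locus and 2 that overlap on chromosome 4, where 5 regions lay within 35.0 kb (chr4:78627534-78662533) at the noncoding genes LOC124900721 and LINC01094. That length is the span of the locus itself, and with windows of 100 kb, 12 windows held 4 or more. The number of regions was what the locus was chosen for and has no test. The mean log2 fold changes of the chromosome 4 regions had a median of -0.76, and 0 of 5 had all 3 lines at or below -0.5. There KMS-12 was the short line at 3 regions, KMS-11 at 1 and RPMI8226 at 1, and KMS-12 was short at none of the CXCR5 regions. Of the table's 2886 regions shared by 2 lines, KMS-12 was short in 785, KMS-11 in 866 and RPMI8226 in 1235. With so few regions at each locus, a difference between the 2 loci in the short line was not tested.

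Other chemokine receptor genes also had regions. Of 22 receptor genes, 5 had a region, CXCR5 and 4 others, where 10.3% of all protein-coding genes had one (2062 of 20052). There were 9 regions in all, 4 of them those of CXCR5. The median mean log2 fold change of the other 5 regions was -0.66, against -0.71 over the table. The list was written with results of these data known, and its counts have no test. A region takes the name of the gene that contains it or is nearest to it, and no expression was analysed here.

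CXCR4, the marrow homing receptor, was nearest to a pair of regions at some distance. That at 120 kb (chr2:136238548-136239156) had a mean log2 fold change of -0.97 ± 0.28 and that at 187 kb (chr2:136305641-136305853) one of -0.56 ± 0.34 (SD, n = 3 lines each). In the first of these all 3 lines were at or below -0.5, unlike at any CXCR5 region. CCR3, a receptor best known from eosinophils, held a region (chr3:46213227-46213812) at -0.83 ± 0.04 with the lines almost level, and CCR9, a gut homing receptor, held one (chr3:45890528-45891210) at -0.66 ± 0.36 (SD, n = 3 lines each). The CCR9 region had RPMI8226 as its short line, as did regions A and D and 42.8% of the table's regions shared by 2 lines. ACKR1, a decoy receptor of red cells and endothelium, was nearest to a region 32.6 kb away (chr1:159239120-159240526) at -0.56 ± 0.06 (SD, n = 3 lines).

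Of 13 ligand genes for B and plasma cell homing, CXCL13, the ligand of CXCR5, had no region, and CCL20, the ligand of CCR6, was the 1 with a region (10.3% of protein-coding genes have one). It lay 0.634 kb from the gene (chr2:227818190-227818639) at -0.74 ± 0.61 (SD, n = 3 lines). Of 22 other homing and adhesion genes, 2 had 1 region each, beside the same 10.3% of protein-coding genes, and their median mean was -0.75. RGS2, which dampens G protein signalling, was 4.94 kb from one (chr1:192817213-192817581) at -0.76 ± 0.07 (SD, n = 3 lines), with all 3 lines at or below -0.5. P2RY8, a receptor that confines B cells to germinal centres, was 10.9 kb from a region (chrX:1548111-1548464, in a part of X whose sequence Y shares) at -0.73 ± 0.71 (SD, n = 3 lines), and its spread over the lines was close to that of region B.

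Of 18 genes of factors known around follicular B or T helper cells, 7 had 9 regions (EBF1, ICOS, IRF4, LEF1, MAF, POU2AF1 and POU2F1), beside 10.3% of protein-coding genes with a region. The median of their means was -0.61, against -0.71 over the table. Like those of the ligands and other homing genes, this list was written with results of these data known, so its counts have no test. The lowest mean was that of a region inside POU2F1, which encodes an octamer-binding factor (chr1:167264170-167264449), at -1.53 ± 0.09 (SD, n = 3 lines). Other regions inside POU2F1 had means of -0.71 ± 0.31 and -0.57 ± 0.45 (SD, n = 3 lines each), both with KMS-12 short of -0.5. A region 84.7 kb from ICOS, a costimulatory receptor of follicular helper T cells, had that gene as its nearest (chr2:204046236-204046507), at -0.91 ± 0.53 (SD, n = 3 lines). Another region of the table lay within 50 kb of ICOS but took the name of another gene. IRF4, a factor on which myeloma cells depend, held a region (chr6:399773-400323) at -0.72 ± 0.50, and POU2AF1, the octamer coactivator of B cells, held one (chr11:111376501-111376845) at -0.61 ± 0.49 (SD, n = 3 lines each). The POU2AF1 region had KMS-11 short of -0.5, as did regions B and C and 866 of the table's 2886 regions shared by 2 lines. At IRF4 the short line was KMS-12, as in 785 of those 2886 regions. BCL6, the factor that directs the germinal centre and follicular helper programs, had no region.

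By closeness of the 3 folds, the regions most like the median profile of the CXCR5 locus lay at genes of other kinds. The measure was the Euclidean distance on the log2 scale over the 3 lines. The nearest was inside HAGHL (chr16:727715-728760), at a distance of 0.032. Then came a region 9.56 kb from ALDH2, the mitochondrial aldehyde dehydrogenase (chr12:111827088-111827306, 0.034), and one inside RASEF (chr9:83043757-83043943, 0.039). A region inside TENM2, a teneurin of neurons, was at 0.042 (chr5:168166523-168167088) and one 110 kb from EMB, which encodes embigin, at 0.047 (chr5:50553640-50554000). The CXCR5 regions themselves lay 0.41 to 0.88 from that profile, so the median profile was not the profile of any single region of the locus.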

How the data were processed

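The treatment label put each ATAC-seq library in its group, and the cell line ties each JQ1 library to its DMSO library. The design text mentions duplicates, but the labels give 1 library for each. The table the authors deposited holds, per region, 1 log2 fold change for each line (base and direction assumed) and how many lines share it. MACS2 and DESeq2 are the tools, and GRCh38.p13 (hg38) the build, per the submitters' processing notes, which state neither versions nor roles. Aligner, filters, transposase shift and scaling are not given in the sources used. The number of lines equalled the lines at or below -0.5 in 3838 of 3838 regions, and 0 folds were above 0. Counts and depth are unknown.

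Means, SDs over lines and shares of the table were computed with pandas (version 2.3.3, Python 3.11.15). Simulated data served to check the means, region counts, short lines, gene relations and motif matches, but not the SDs or shares. A region was named by the containing gene, else the nearest, taken from the RefSeq table for GRCh38.p14 (20052 protein-coding, 18330 lncRNA). Distances run to gene ends. The strand of CXCR5 is that of its promoter entry. No test was run, because the table and the locus were chosen on these folds. The members and lists were chosen with earlier results of these data known, and part of the homing and adhesion list is not reported here. Named were every locus region, up to 4 genes per list with the lowest means, adjacent genes, and the 5 nearest profiles. Alternatives left out a line, used the median, centred each line, or changed thresholds, windows and gene assignment.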

Additional observations from a re-analysis of the deposited data

How the results depend on the processing

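Leaving out 1 line at a time moved the mean log2 fold change between -0.96 and -0.60 for region A, -1.21 and -0.41 for region B, -0.65 and -0.37 for region C and -0.90 and -0.65 for region D, and the median of the 4 means between -0.88 and -0.52. Medians of the 3 lines in place of means were -0.92 for A, -0.76 for B, -0.63 for C and -0.88 for D. With each line centred on its own median over the table, region A stood at -0.027, region B at -0.11, region D at -0.033 and the median of the 4 at -0.030, while region C changed sign to 0.24: relative to the table, the locus was about level. The count of regions with every line at or below the threshold was 0 at -0.75 (6.31% of the table) and 0 at -1 (1.02%). At -0.5 it was 0 to 2 when a line was left out, which restates which line was short at each region. The locus held 4 regions also by nearest protein-coding or lncRNA gene, though the pseudogene SETP16 lay nearer than CXCR5 to regions A and B. A window widened by 100 kb on each side held 4 too, as the next regions lay 228 and 626 kb away. Counting genes within 50 kb of a region gave 8 chemokine receptors in place of 5, 3 ligands in place of 1, 12 other homing genes in place of 2 and 7 factors in place of 7. This count left out CXCR4 and EBF1, whose regions lie farther away, and took in others such as RELB, since neighbouring genes then share a region. By the same rule the marker counts were 2 plasma cell, 1 B cell (MS4A1), 0 T cell and 2 myeloid genes (CD14 and CSF1R). The share of all genes within 50 kb of a region was not computed, so these counts have no background. The 10.3% of protein-coding genes given above holds for the containing or nearest gene only. No paired analysis was possible because no result comes from a test, and the line is already paired within each fold. With 1 library per line and treatment and unknown depth, the error of a single fold cannot be given.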

Other observations

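The line short of -0.5 was compared between neighbouring regions of the table. Among 115 pairs of adjacent regions at most 20 kb apart, each shared by 2 lines, 46 pairs (40.0%) had the same line short of -0.5, beside 34.7% of all pairs of regions shared by 2 lines. At the CXCR5 locus this held for 1 of 3 such pairs, regions B and C. The 3 pairs are among the 115, and pairs of 1 cluster are not independent, so no test was made.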
